A study of Mus musculus with 4 samples.

Results

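The late cornified envelope (LCE) genes encode small proteins that are added to the cell envelope in the last step of keratinocyte differentiation. The 10 genes described here are the 4 LCE1 genes Lce1a1, Lce1b, Lce1c and Lce1m and the 6 LCE3 genes Lce3a, Lce3b, Lce3c, Lce3d, Lce3e and Lce3f, taken by gene symbol from tables of 23238 distinct symbols, and all 10 were found. Gene expression was profiled by 3′ RNA sequencing in the skin of adult C57BL/6 mice, in a study of the transcription factor EGR1 in atopic dermatitis. Of the 4 groups, the first was Egr1 knockout with sodium dodecyl sulfate (SDS) and house dust mite (HDM) extract, and the next was wild type (WT) with the same treatment. The others were Egr1 knockout and WT skin called naive, for which the treatment label gives SDS alone. SDS is a detergent that disrupts the barrier; according to the protocol, the ear and neck area was shaved, SDS was put on it and on both ears, and 100 mg of HDM cream followed, 2 times per week for 3 weeks. All mice shared the C57BL/6 background, knockout mice were Egr1-/- with no driver or cell type named, and genotypes had been read by PCR. Each group held 1 library, so no comparison has a replicate error or a test, and the labels do not say whether animals were pooled.

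The cornified envelope is a sheet of crosslinked protein that replaces the plasma membrane of keratinocytes as they become the dead outer layer of the skin. Transglutaminases crosslink loricrin, small proline-rich proteins and LCE proteins into it. In human skin, LCE1 genes are transcribed in normal epidermis, whereas LCE3 genes are low there and are known to be induced by barrier disruption and in psoriatic lesions, and LCE proteins have been described as antibacterial. In mice, both families lie in the epidermal differentiation complex on chromosome 3.

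In the mm10 assembly (GENCODE annotation), each of the 10 genes is annotated as protein-coding on chromosome 3. From the start of Lce1a1 at 92646535 to the end of Lce1m at 93019060 they span 373 kb. Lce1a1 (92646535 to 92648307, minus strand), Lce1b (92655650 to 92656926, minus) and Lce1c (92679247 to 92680918, plus) lie at one end. The LCE3 genes form a block of 68.1 kb from Lce3a (start 92925287) to Lce3f (end 92993426). Lce1m (93017810 to 93019060, minus strand) stands apart from the other LCE1 genes, 24.4 kb beyond that block. The 250 bases before the annotated start are shown for the LCE1 and the LCE3 gene with the most reads and for Lce1m, whose values departed most from those of the other LCE1 genes. The sequences are RefSeq promoters of build GRCm38.p6, written 5′ to 3′ in the direction of transcription, and capitals mark the letters TATAAA.
Lce1a1, chr3:92648308-92648557, minus strand: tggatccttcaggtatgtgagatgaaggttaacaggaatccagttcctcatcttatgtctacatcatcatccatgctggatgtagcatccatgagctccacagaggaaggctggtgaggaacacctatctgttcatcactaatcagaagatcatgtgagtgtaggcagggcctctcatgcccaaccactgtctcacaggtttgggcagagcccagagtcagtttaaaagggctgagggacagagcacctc
Lce1m, chr3:93019062-93019311, minus strand: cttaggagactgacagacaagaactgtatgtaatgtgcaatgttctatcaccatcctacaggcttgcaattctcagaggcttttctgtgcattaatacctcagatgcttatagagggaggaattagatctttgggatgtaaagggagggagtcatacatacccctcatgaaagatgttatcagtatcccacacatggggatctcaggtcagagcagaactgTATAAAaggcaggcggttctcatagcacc
Lce3c, chr3:92944236-92944485, plus strand: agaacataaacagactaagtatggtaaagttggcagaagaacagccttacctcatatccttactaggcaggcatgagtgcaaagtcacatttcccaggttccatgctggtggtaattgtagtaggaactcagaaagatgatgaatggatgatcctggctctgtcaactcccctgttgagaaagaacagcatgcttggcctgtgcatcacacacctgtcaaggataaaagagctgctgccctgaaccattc

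The table of promoters (250 bases before to 50 after the start) held all 10 genes, and 5 motifs were looked for on both strands. The letters TATAAA stood in 2 of the 10, at base -29 from the start in Lce1m and, on the opposite strand, at -243 in Lce3e, and in 13.6% of all 32851 promoters. The EGR motif GCGNGGGCG, the AP-1 motif TGANTCA, the STAT motif TTCNNNGAA and the KLF motif CCACCC were in 0 of the 10, against 5.55%, 7.81%, 8.30% and 31.5% of all promoters. These letters are thus not in these windows, which says nothing of the factors. The 250 upstream bases of LCE1 pairs were 53.4% to 70.6% identical, those of LCE3 pairs 55.1% to 83.7% and those of mixed pairs 47.3% to 54.7%.

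The libraries held between 9443865 and 10129020 recovered reads. Egr1 itself had 3493 reads in the library labelled Egr1 KO HDM, 1174 in WT HDM, 3158 in Egr1 KO naive and 1966 in WT naive, so it was not lower where the label says knockout. The labels do not say which bases were deleted, and 3′ reads can come from beyond them, so this checks no label; these 2 libraries are named KO-labelled. KO-labelled naive skin lacked any read of 336 genes for which every other library held at least 50, and no other library lacked more than 5 such genes. Xist reads numbered 2432 and 2195 in the HDM libraries against 40 and 10 in the naive ones. Those of the Y-linked gene Ddx3y numbered 1 and 1 against 2430 and 1925. Sex-linked transcripts thus split the libraries by treatment in both genotypes. Treatment and the sex that these transcripts mark cannot be told apart in any comparison of HDM with naive skin. The summed reads of 10 cartilage genes, taken as a sign of ear tissue, were 79 in KO-labelled HDM, 14470 in WT HDM, 24462 in KO-labelled naive and 26603 in WT naive skin. In KO-labelled HDM 4 of the 10 were at 0, namely Col2a1, Col9a1, Matn1 and Matn3. Matn1 and Matn3 were also at 0 in WT HDM and KO-labelled naive skin, and Matn1 in WT naive skin. Most of the WT HDM sum was Cytl1, with 11606 reads. The labels call the tissue skin, and the basal keratin gene Krt5 had 82025 and 86154 reads in KO-labelled and WT HDM skin and 16872 and 28160 in the naive libraries. Krt15, another basal keratin gene, went the other way, with 2816 and 1200 reads in KO-labelled and WT HDM skin against 9805 and 9623. The naive libraries also held reads of salivary and lacrimal genes, which over 10 genes summed to 88 in KO-labelled HDM, 200 in WT HDM, 82167 in KO-labelled naive and 694279 in WT naive skin. In WT naive skin Bpifa2 (336299 reads) and Smr3a (248931 reads), both salivary genes, had the most reads of all genes. The part of these markers in the LCE values was not tested.

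LCE1 genes, those of the normal envelope, were lower with HDM in both genotypes. In KO-labelled skin the 4 summed to 3317 reads with HDM and 22191 in naive skin, a level 6.67-fold lower with HDM (95% counting interval 6.43 to 6.92). It was 11.4-fold lower without Lce1a1, and 11.0-fold lower with WT naive skin in place of KO-labelled naive skin. In WT skin they summed to 9349 reads with HDM and 32460 in naive skin, 3.40-fold lower (3.32 to 3.48). Each of the 4 was lower by 2-fold or more in both genotypes. Over 11600 genes above the median level, 18.2% were lower by 2-fold or more with HDM in KO-labelled and 12.7% in WT skin. These sums and folds are on the authors' scale between libraries, and an interval here takes in counting error alone. In bulk skin, fewer cells of a type and less RNA per cell cannot be told apart.

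Lce1a1, the LCE1 gene with the most reads, had deposited log2 values of 11.23 in KO-labelled HDM, 12.94 in WT HDM, 13.63 in KO-labelled naive and 14.63 in WT naive skin. Both HDM values lay below both naive values. With HDM it was 5.27-fold lower in KO-labelled (5.05 to 5.50) and 3.24-fold lower in WT skin (3.16 to 3.33). Lce1b had log2 values of 8.25 in KO-labelled HDM, 10.07 in WT HDM, 11.37 in KO-labelled naive and 11.39 in WT naive skin. Its naive libraries were nearly level with each other and its HDM libraries apart. Its reads were 8.72-fold (7.77 to 9.82) and 2.49-fold lower with HDM (2.31 to 2.68) in KO-labelled and WT skin. Lce1c had 8.55 in KO-labelled HDM, 10.03 in WT HDM, 11.14 in KO-labelled naive and 12.24 in WT naive skin on the same log2 scale. This was 6.02-fold (5.41 to 6.71) and 4.62-fold lower with HDM (4.31 to 4.96) in KO-labelled and WT skin.

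Lce1m had the lowest HDM values of the 4, with log2 values of 4.91 in KO-labelled and 6.75 in WT HDM skin, against 11.63 in KO-labelled naive and 10.38 in WT naive skin. These correspond to 31, 99, 3392 and 1263 reads. With HDM it was 109-fold lower in KO-labelled (76.7 to 161) and 12.5-fold lower in WT skin (10.2 to 15.5). Lce1m thus differed from the other 3 LCE1 genes by its size, its log2 difference being -6.72 in KO-labelled and -3.63 in WT skin, where theirs lay between -3.12 and -2.40 and between -2.21 and -1.31. Its part in the LCE1 reads of a library was 0.935% (0.636 to 1.32) in KO-labelled HDM, 1.06% (0.861 to 1.29) in WT HDM, 15.3% (14.8 to 15.8) in KO-labelled naive and 3.89% (3.68 to 4.11) in WT naive skin. That share depends on no scaling between libraries.

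**Figure D1:**
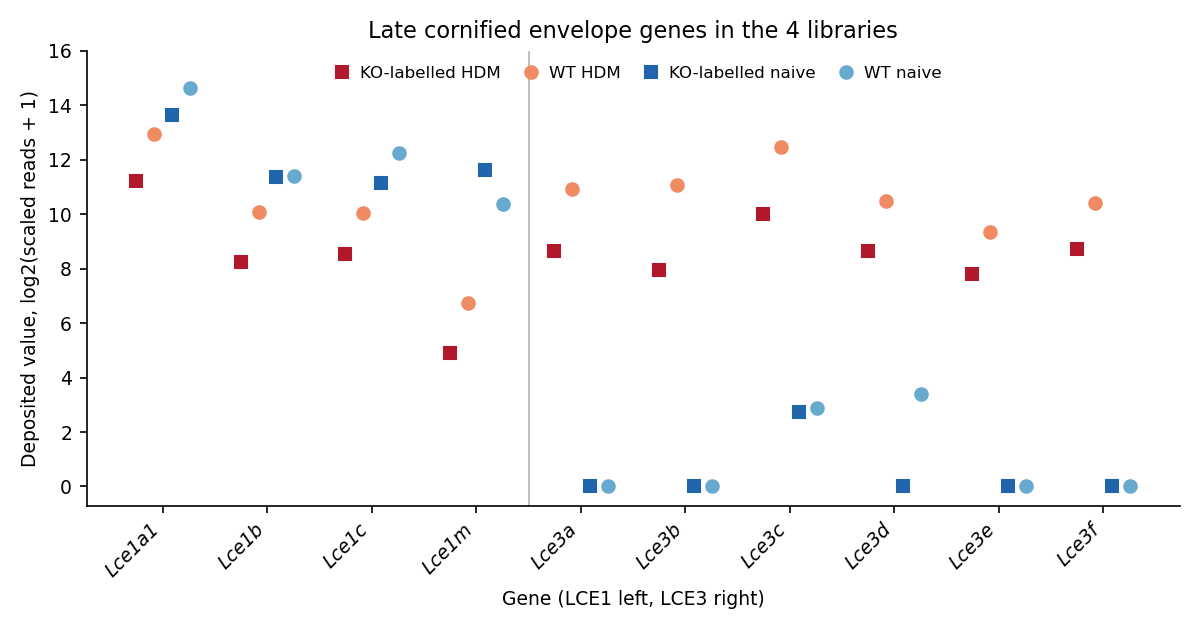
Deposited values, log2(scaled reads + 1), of the 4 LCE1 genes (left of the line) and 6 LCE3 genes (right) in the 4 libraries, 1 point per library. All LCE1 genes lie lower in the HDM libraries than in the naive ones of their genotype, and all LCE3 genes lie between 7.82 and 12.48 in the HDM libraries and at 3.40 or below in the naive ones.

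LCE3 genes were nearly absent from naive skin and present in both HDM libraries. Their summed reads were 2897 in KO-labelled HDM, 12322 in WT HDM, 6 in KO-labelled naive and 15 in WT naive skin. The summed level was 487-fold higher with HDM in KO-labelled (222 to 1321) and 832-fold higher in WT skin (508 to 1499). Set against WT naive skin, KO-labelled HDM skin was 170-fold higher, outside the first of these intervals, and KO-labelled naive skin is the library that lacked reads of 336 genes. All 6 were higher by 2-fold or more in both genotypes, where 21.7% and 14.5% of the 11600 genes were higher with HDM in KO-labelled and WT skin. The median log2 difference over the 6 was 8.30 in KO-labelled and 9.99 in WT skin, or 7.16 and 9.01 with a library at 0 set to 3 reads, against medians of 0.06 and 0.03 over the 11600 genes. Lce3c and Lce3d had a mean over the libraries above the median of all genes, through their HDM values. The other 4 LCE3 genes lay below it.

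Lce3c held the most LCE3 reads, with 1085 in KO-labelled HDM, 5299 in WT HDM, 6 in KO-labelled naive and 6 in WT naive skin. On the log2 scale the values were 9.99, 12.48, 2.72 and 2.88 in the same libraries. It was 181-fold higher with HDM in KO-labelled (83.1 to 495) and 902-fold higher in WT skin (414 to 2458). Lce3d had 430 reads in KO-labelled HDM and 1342 in WT HDM skin, against 0 in KO-labelled naive and 9 in WT naive skin. A count of 0 allows up to 3 reads per library, so Lce3d was at least 144-fold higher with HDM in KO-labelled skin, and it was 152-fold higher in WT skin (79.9 to 334). Lce3d and Lce3c were the only LCE3 genes with a read in a naive library.

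The other 4 LCE3 genes had 0 reads in both naive libraries. Lce3a had 425 reads in KO-labelled and 1820 in WT HDM skin, at least 142-fold and 619-fold higher than in naive skin. Lce3b had 265 and 2003 reads in KO-labelled and WT HDM skin, at least 88.6-fold and 682-fold higher. The WT library held the more reads for each of them. Lce3e had 239 reads in KO-labelled and 602 in WT HDM skin, at least 79.9-fold and 205-fold higher, and Lce3f 453 and 1256, at least 151-fold and 427-fold higher. The naive level in WT was listed at a log2 value of 0.03 for these 4, under 0.1 read, and is taken as 0 reads. Bounds against KO-labelled naive skin rest on its zeros, in the library where 336 genes lacked reads.

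The LCE3 share of the reads of these 10 genes, which include 4 of the 14 LCE1 genes of the tables and all 6 LCE3 genes, needs no scaling between libraries. It was 46.6% (45.4 to 47.9, exact binomial interval) in KO-labelled HDM, 56.9% (56.2 to 57.5) in WT HDM, 0.0270% (0.00992 to 0.0588) in KO-labelled naive and 0.0462% (0.0259 to 0.0762) in WT naive skin. Over all 14 LCE1 and 6 LCE3 genes the share was 33.7% in KO-labelled HDM and 42.2% in WT HDM skin, with 5703 LCE1 against 2897 LCE3 reads in KO-labelled and 16854 against 12322 in WT skin. Without Lce1a1 and Lce3c, the share over the remaining 8 genes was 70.6% in KO-labelled and 77.2% in WT HDM skin. Which family held more reads in HDM skin thus depends on the genes counted, while in both naive libraries nearly all of these reads were LCE1. The kit reads 3′ ends, so reads were not divided by length; per kb of the annotated transcript, which is 491 to 874 bases long in these genes, the share was 52.3% in KO-labelled HDM, 62.3% in WT HDM, 0.0343% in KO-labelled naive and 0.0630% in WT naive skin. Within LCE1, Lce1a1 held 77.0%, 77.5%, 62.4% and 74.5% of the reads per kb in the same libraries. Within LCE3, Lce3c held 37.0% of the reads per kb in KO-labelled HDM and 42.5% in WT HDM skin. As parts of the whole library, the LCE1 genes took 0.0327% of reads in KO-labelled HDM, 0.0990% in WT HDM, 0.223% in KO-labelled naive and 0.338% in WT naive skin. For the LCE3 genes these shares were 0.0286%, 0.130%, 6.0e-05% and 0.000156%.

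**Figure D2:**
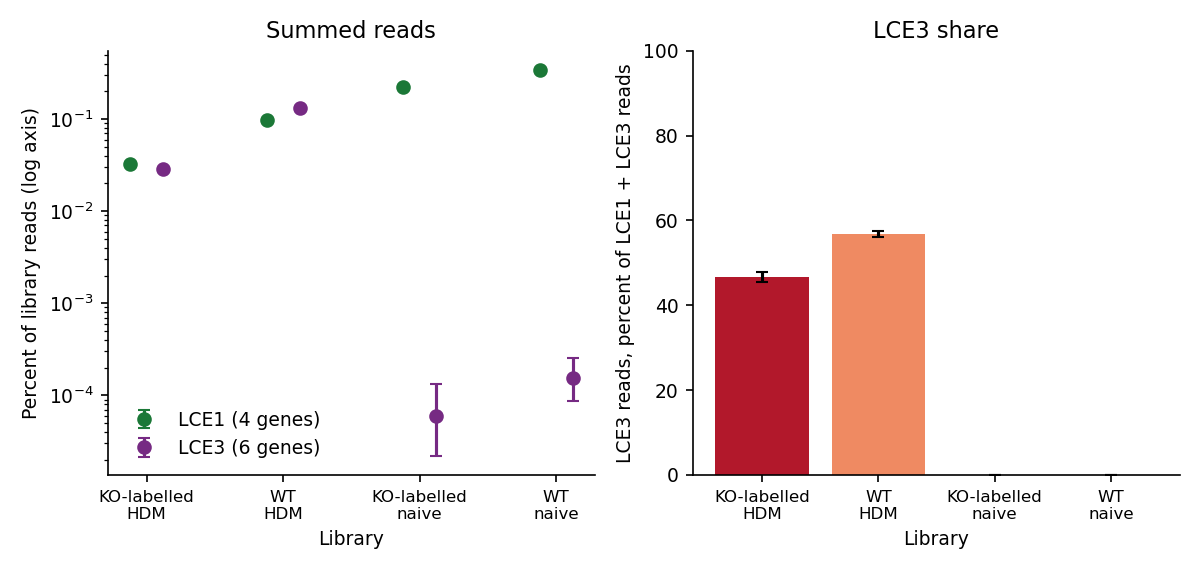
Left, summed reads of the LCE1 and the LCE3 genes as a percent of each library's reads, on a log axis. Right, LCE3 reads as a percent of the reads of the 4 LCE1 and 6 LCE3 genes described; bars start at 0, error bars in both panels are exact 95% binomial intervals, and the share is 46.6% and 56.9% in KO-labelled and WT HDM skin and below 0.1% in both naive libraries.

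Under HDM, both families were lower in KO-labelled than in WT skin. The LCE1 sum was 3.24-fold lower (3.11 to 3.37) and the LCE3 sum 4.88-fold lower (4.69 to 5.09) in the KO-labelled library. All 4 LCE1 and all 6 LCE3 genes were lower by 2-fold or more, where 4.66% of the 11600 genes were lower by that much and 3.06% higher. The 4 LCE1 genes lay close together, with log2 differences from -1.84 (Lce1m) to -1.48 (Lce1c). Over all 14 LCE1 genes of the tables the range was wider, from -2.37 (Lce1h) to -1.48. The LCE3 genes were spread more widely. Lce3b was lowest, 8.68-fold lower (7.63 to 9.90), followed by Lce3c at 5.61-fold (5.25 to 5.99) and Lce3a at 4.92-fold (4.42 to 5.48), while the log2 differences were -1.84 for Lce3d, -1.67 for Lce3f and -1.53 for Lce3e. Within the LCE3 reads, Lce3b accordingly made up 9.15% (8.12 to 10.3) in KO-labelled and 16.3% (15.6 to 16.9) in WT HDM skin.

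Other genes of the outer epidermis and the markers of sampled tissue differed between these HDM libraries too. The summed level of 6 suprabasal keratinocyte genes was lower by a log2 difference of -2.14, with Krt10, a keratin of the layers above the basal one, at 4137 reads in KO-labelled and 21990 in WT HDM skin. Krt2, a keratin of the upper layers in mouse ear, tail and sole, had 1 read in KO-labelled and 4493 in WT HDM skin. The envelope gene Lor, which encodes loricrin, was at -1.83, while the sums of 6 basal and of 6 activated keratinocyte genes were at -0.12 and -0.38. The sum of the cartilage genes was at -7.72, with the 79 and 14470 reads given above. By gene, 3 of the 6 suprabasal genes were lower by 2-fold or more and 0 higher (median -1.28). Of the basal genes 1 was higher and 0 lower (median 0.38). Of the activated genes 2 were lower, S100a8 and S100a9, and 0 higher (median -0.62). Over the 11600 genes, 4.66% were lower and 3.06% higher. The part of these tissue markers in the LCE differences was not tested.

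**Figure D3:**
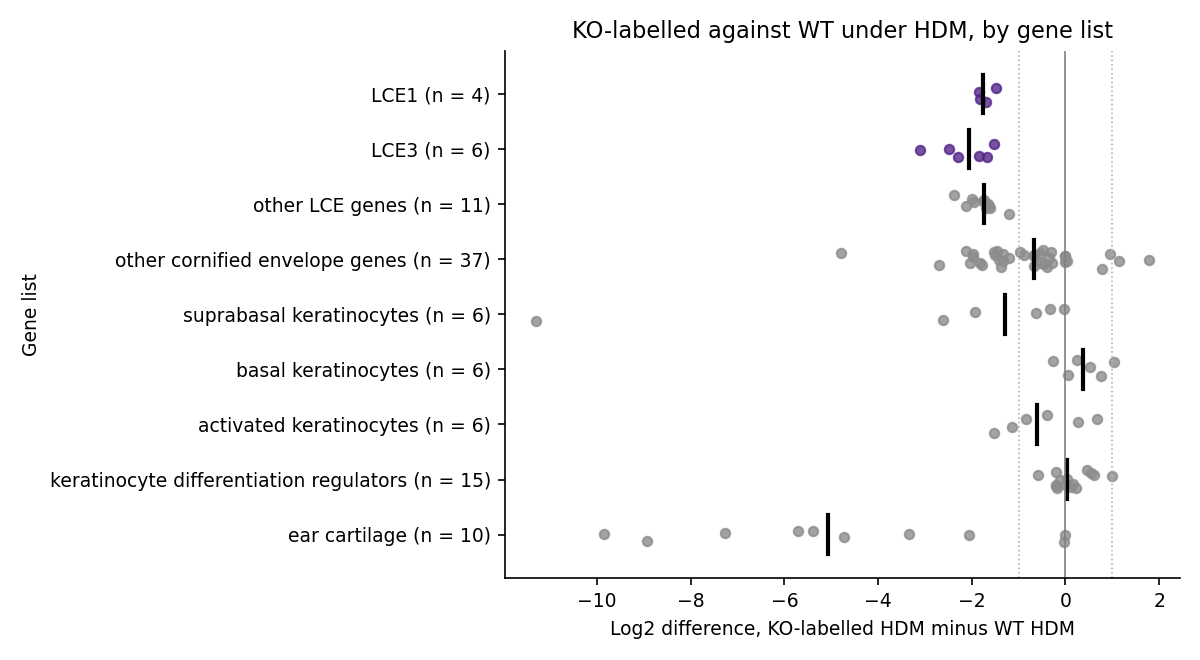
Log2 differences of deposited values, KO-labelled HDM minus WT HDM, 1 point per gene, for the LCE families and for other gene lists; thick lines are list medians, the thin line is the median of the 11600 genes (-0.01), and dotted lines mark 2-fold. All LCE genes lie below the lower dotted line, as do 8 of the 10 cartilage genes.

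In naive skin the LCE1 genes did not go one way between genotypes. Lce1a1 was 2.00-fold lower (1.96 to 2.05) and Lce1c 2.15-fold lower (2.04 to 2.26) in the KO-labelled library, Lce1b was at 0.988 of the WT level (0.937 to 1.04), and Lce1m was 2.38-fold higher (2.23 to 2.54). The summed LCE1 level was 1.65-fold lower in KO-labelled skin (1.62 to 1.68), and most of that sum is Lce1a1: without it the ratio of KO-labelled to WT was 0.912. Thus 2 of 4 LCE1 genes were lower and 1 higher by 2-fold or more, where 17.1% of the 11600 genes were lower and 13.6% higher. Lce1a1 passed 2-fold by little, and with reads scaled to library totals in place of the authors' scale neither Lce1a1 nor Lce1c passed. LCE3 differences in naive skin rest on 6 reads in KO-labelled and 15 in WT skin, and Lce3d, with 0 against 9 reads and at least 3.38-fold lower in KO-labelled skin, was the only one past 2-fold. With reads scaled to library totals and 1 added after scaling, 0 LCE3 genes were past 2-fold there. That 1 stands for 9.95 reads in KO-labelled and 9.61 in WT naive skin, above the 9 reads of Lce3d. The part of scaling alone in this count was not tested. The 4 comparisons share libraries with one another, so they are not independent.

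Along the cluster, the HDM differences of the 21 LCE genes of the tables were above 0 for all LCE3 genes and below 0 for all LCE1 genes and Lce6a, except Lce1f and Lce1k in WT skin. Of the 11 LCE genes outside the 10, which are 10 more LCE1 genes and Lce6a, 9 were lower by 2-fold or more with HDM in KO-labelled and 6 in WT skin, where 18.2% and 12.7% of the 11600 genes were, and 0 were higher. Their medians on the log2 scale were -2.01 and -1.10. Lce1l, the last LCE1 gene before the LCE3 block at a distance of 74.0 kb, had 68 reads in KO-labelled HDM and 184 in WT HDM skin, against 3000 in KO-labelled naive and 2302 in WT naive skin. Its log2 difference with HDM was -5.44 in KO-labelled and -3.61 in WT skin. Lce1l and Lce1m, the LCE1 genes next to the LCE3 block on either side, thus had the largest differences of the 14 LCE1 genes in both genotypes; this pair was singled out after its values were seen. At the other extreme, Lce1f and Lce1k were at -0.35 and -0.56 with HDM in KO-labelled skin and at 0.08 and 0.22 in WT skin, all under 2-fold. Under HDM, all 11 were lower by 2-fold or more in KO-labelled than in WT skin, against 4.66% of the 11600 genes, with a median of -1.73.

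**Figure D4:**
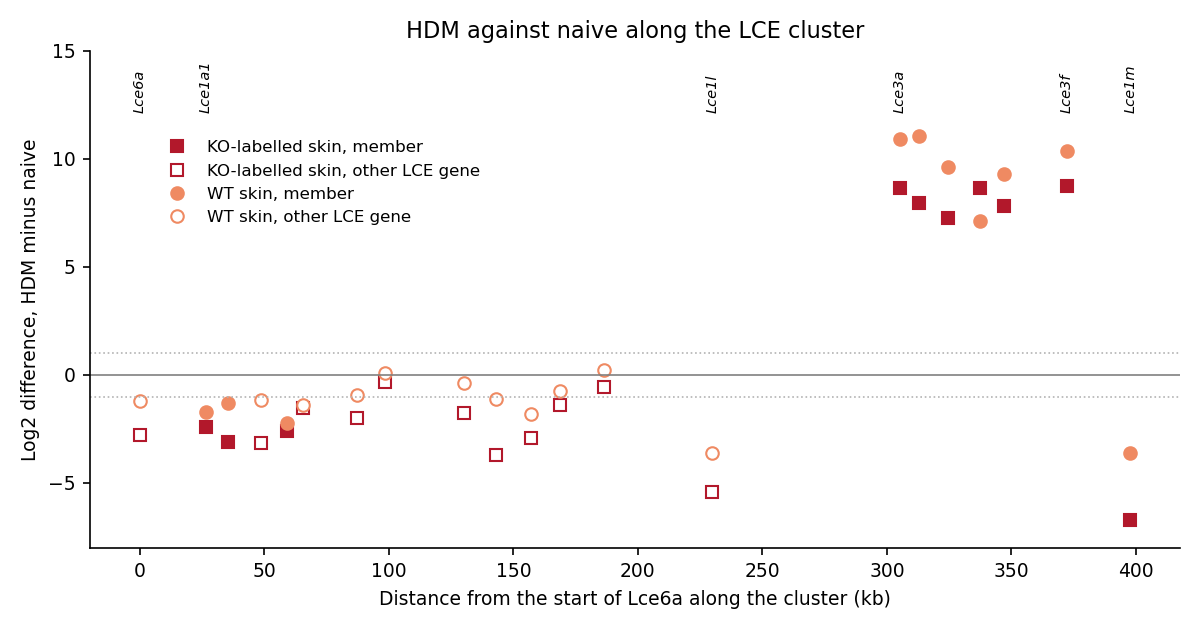
Log2 difference, HDM minus naive, of the 21 LCE genes against the distance of their start from that of Lce6a, in kb; filled points are the 10 genes described, open points the other LCE genes, squares KO-labelled and circles WT skin. The 6 LCE3 genes lie between 7.10 and 11.05, and Lce1l and Lce1m, on either side of them, lie lowest.

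Some of the copies are alike, and a read from one of these can match another. In the last 300 bases of the annotated transcripts, where 3′ reads fall, LCE3 pairs were 48.7% to 93.4% identical, with Lce3b and Lce3c the most alike. LCE1 pairs of the 4 genes were 53.1% to 68.4% identical, and pairs of an LCE1 with an LCE3 gene 47.6% to 59.2%. The medians lay close together, at 53.1%, 55.4% and 52.6% in that order. A run of 50 bases was shared there by 6 of 15 LCE3 pairs and 3 of the 6 LCE1 pairs. Identity did not rank this sharing. Lce3c and Lce3d shared the most runs of the LCE3 pairs, 54 at 58.0% identity, against 11 for Lce3b and Lce3c. Of the LCE1 pairs, Lce1b and Lce1c shared the most, 31 at 56.5% identity, against 18 for Lce1a1 and Lce1c at 68.4%. Lce1a1, Lce1b and Lce1c each shared at least 1 run of 50 bases there with one another and with other LCE1 genes, 7 or 8 LCE genes in each case. Lce3a, Lce3b, Lce3c and Lce3d each shared one with the other 3. Lce1m, Lce3e and Lce3f shared none with any of the 20 other LCE genes, and no LCE1 gene shared one with an LCE3 gene. The labels do not say how reads that match several genes were counted, so single values of the sharing genes are uncertain. The LCE3 sum holds all genes that share a run with an LCE3 gene in the cluster, but the sum of the 4 LCE1 genes does not hold all of theirs. Over all 14 LCE1 genes, the sum was 6.16-fold lower with HDM in KO-labelled and 2.86-fold lower in WT skin, and 3.39-fold lower in KO-labelled than in WT skin under HDM.

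Other cornified envelope genes were found on both sides. With HDM, 18 of 37 in the tables were past 2-fold upward and 7 downward in KO-labelled skin, with a median log2 difference of 0.97, and 21 upward and 3 downward in WT skin, with a median of 1.50. Over the 11600 genes, 21.7% were higher and 18.2% lower in KO-labelled and 14.5% higher and 12.7% lower in WT skin, so the downward counts of 7 and 3 lie near or below those shares. Sprr2d, a small proline-rich envelope gene, had 3190 reads in KO-labelled HDM, 9518 in WT HDM, 0 in KO-labelled naive and 2 in WT naive skin. Repetin (Rptn), another envelope precursor, had 3170, 6389, 0 and 25 reads in these libraries. Lor was among the lower ones, with log2 values of 12.00 in KO-labelled HDM, 13.83 in WT HDM, 15.93 in KO-labelled naive and 16.25 in WT naive skin. Asprv1, the skin protease that processes profilaggrin, was nearly level with HDM, at 0.003 in KO-labelled and -0.09 in WT skin. Under HDM, 16 of the 37 were lower and 2 higher in KO-labelled than in WT skin (median -0.68), against 4.66% lower and 3.06% higher over the 11600 genes. In naive skin 10 were lower and 1 higher (median -0.11), against 17.1% and 13.6%. Copies among the Sprr2 genes are also alike.

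The genes outside the LCE family with the profile nearest to the summed LCE1 level over the 4 libraries were Cyp2b19, Itga10, D630045J12Rik, Fam120aos and Serpina12, of 11583 ranked. Only genes above the median level of all genes were ranked, a filter that only 2 LCE3 genes, Lce3c and Lce3d, pass themselves. Itga10 and Fam120aos had 15 and 14 reads in KO-labelled HDM skin. Nearness is the root mean square distance of log2 values after each gene's mean is taken off, 0.15 for Cyp2b19, a cytochrome P450 gene of mouse keratinocytes, and 0.24 for Serpina12. Cyp2b19 had log2 values of 8.49 in KO-labelled HDM, 9.81 in WT HDM, 10.88 in KO-labelled naive and 11.65 in WT naive skin. Nearest to the summed LCE3 level were Sprr2h, Sprr2e, the activated-epidermis keratin gene Krt6b, the hair keratin gene Krt31 and Uox, at distances from 0.55 to 0.98. Sprr2e, with 0 reads in both naive libraries, passed the filter through its HDM values. With 4 libraries, such a ranking describes these profiles and no more.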

How the data were processed

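Skin RNA from 4 groups with 1 library each was sequenced with the QuantSeq 3′ kit from 500 ng of total RNA, per the labels. The authors deposited log2 values on 23282 lines, 1 gene symbol each, with 3 decimals. Per the submitters' processing notes, Bowtie2, bedtools and mm10 were used. Neither those notes nor the labels give normalization, filters or the counting of shared reads. Low values of 2 to the power of the deposited value, minus 1, fell on multiples of a step per library (0.939 in KO-labelled HDM, 1.078 in WT HDM, 0.936 in KO-labelled naive, 1.056 in WT naive), so reads were recovered by division; 99.1%, 98.2%, 96.2% and 98.9% of genes with up to 200 reads came out whole within 0.1 read. Higher read numbers are approximate. Totals were 10129020, 9443865, 9950023 and 9610840 reads in that order.

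Symbols on several lines were left out (35 on 79 lines). With 1 library per group nothing was tested: ratios of sums have exact 95% Clopper-Pearson intervals conditional on the summed reads, and single genes a size rule of 2-fold (log2 difference of 1 or more). The background is the 11600 genes with a mean log2 value above the median of all genes, 5.11. Reads carry no molecular identifiers, so intervals and the limit of 3 reads for a 0 cover counting error only. Copies' transcript ends came from GENCODE M21. The genes and lists were chosen with earlier results of these data known. All 10 LCE genes are named; of each other list, the 2 genes with the most reads and the 2 with the largest HDM difference (among those with 50 reads or more) could be named, besides defining markers at 0. Lce1f, Lce1k and Lce6a were named after their values were seen. Lists held epidermal genes and markers of other cell types; Flg and Ly6g were not found under these symbols. Alternatives changed scaling, pseudocount, filter, size rule and summary. The computation, tested on simulated data, used scipy 1.17.1, biopython 1.88, pandas 2.3.3 and numpy 2.4.6 under Python 3.11.15.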

Additional observations from a re-analysis of the deposited data

Results flagged for a closer look

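Lce1m differed between genotypes in opposite directions in the 2 treatments. Its log2 difference, KO-labelled minus WT, was -1.84 in HDM skin (31 against 99 reads) and 1.25 in naive skin (3392 against 1263 reads). Each side is 1 library, and the difference between the 2 differences was not tested. Lce1m shared no run of 50 bases with other LCE genes at its transcript end.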

How the results depend on the processing

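No paired analysis was possible because each group held 1 library, and for the same reason no library could be left out within a group. Of 74 alternatives, 44 kept the direction and lay within the interval of a ratio or share, or within 1.5 times a count. All summed ratios kept their direction. With the median over members in place of the sum, the LCE1 ratio of HDM to naive was 0.138 in KO-labelled and 0.258 in WT skin, and that of KO-labelled to WT was 0.294 under HDM and 0.702 in naive skin; the LCE3 ratio of KO-labelled to WT was 0.239 under HDM and 0.979 in naive skin. Without Lce1a1 the LCE1 ratio was 0.0875 and 0.252 for HDM to naive in KO-labelled and WT skin, and 0.912 for KO-labelled to WT in naive skin. Without Lce3c the LCE3 ratio of KO-labelled to WT under HDM was 0.225; for the naive and the KO-labelled HDM comparisons no value could be had, since no other LCE3 read was in KO-labelled naive skin. With reads scaled to library totals, the ratios of KO-labelled to WT were 0.331 (LCE1, HDM), 0.660 (LCE1, naive) and 0.219 (LCE3, HDM). With 1 added after that scaling, 1 LCE1 gene, higher, was past 2-fold in naive skin, in place of 1 higher and 2 lower. For LCE3 genes the count there was 0 in place of 1. That added 1 stands for more reads than the 9 of Lce3d, the gene past 2-fold before. With 4-fold in place of 2-fold, 2 LCE1 genes were past it for HDM in WT skin and 0 for KO-labelled against WT in either treatment. For KO-labelled against WT under HDM, 3 LCE3 genes were past it. The share of background genes past 4-fold was not computed, so whether these counts lie above or below it cannot be said. With members above the median of all genes alone, 2 LCE3 genes were left in both HDM comparisons and in that of genotypes under HDM. The filter removes the others by its construction. The 2 left, Lce3c and Lce3d, passed it through their HDM values, so it could not check their higher level with HDM. With WT naive in place of KO-labelled naive skin, chosen after seeing the data, KO-labelled HDM skin had an LCE1 ratio of 0.0909 and an LCE3 ratio of 170, with all members past 2-fold as before. The LCE3 share was 33.7% in KO-labelled and 42.2% in WT HDM skin over all LCE1 and LCE3 symbols. Without Lce1a1 and Lce3c it was 70.6% and 77.2% there, 0% in KO-labelled naive and 0.107% in WT naive skin. Depth limits the LCE3 values of naive skin, with 6 and 15 reads. The cause of these shifts was not tested where the alternative does not itself set it.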

Other observations

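Of 15 regulators of keratinocyte differentiation, with HDM 6 were past 2-fold upward and 0 downward in KO-labelled skin (median 0.66), and 3 upward and 1 downward in WT skin (median 0.44). Over the 11600 genes above the median level, 21.7% were higher and 18.2% lower with HDM in KO-labelled and 14.5% higher and 12.7% lower in WT skin, and 3 of 15 in WT skin is near that share. Fosl1, an AP-1 subunit, had 77 reads in KO-labelled HDM, 33 in WT HDM, 0 in KO-labelled naive and 31 in WT naive skin. Klf4, a transcription factor of barrier formation, had log2 values of 12.33 in KO-labelled HDM, 12.52 in WT HDM, 12.92 in KO-labelled naive and 12.83 in WT naive skin. Ovol1, another one, had 10.95, 11.15, 8.94 and 9.30 in these libraries. Under HDM, 1 of the 15 was higher and 0 lower in KO-labelled than in WT skin (median 0.03), against 3.06% and 4.66%. By the keratinocyte lists, 6 of 6 activated keratinocyte genes were higher with HDM in both genotypes. Of 6 basal genes, 3 were higher and 2 lower with HDM in KO-labelled and 2 higher and 2 lower in WT skin, and of 6 suprabasal genes 1 was higher and 3 lower in KO-labelled and 3 higher and 2 lower in WT skin.

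Several lists of markers of other tissue differed in the same comparisons, and their part in the LCE values was not tested. With HDM, 12 of 12 hair shaft and root sheath genes were higher by 2-fold or more in KO-labelled skin, where 21.7% of the 11600 genes were, and in WT skin, where 14.5% were, with summed reads of 44904 in KO-labelled HDM, 19227 in WT HDM, 339 in KO-labelled naive and 232 in WT naive skin. Of those 12 hair genes, 8 had 0 reads in KO-labelled naive skin, the library where 336 genes lacked reads. Only 10 of the 12 lay above the median level that defines the 11600 genes. Salivary and lacrimal genes summed to 88, 200, 82167 and 694279 reads in the 4 libraries in the same order. With HDM, 8 of 10 were lower in KO-labelled and 9 in WT skin, against 18.2% and 12.7% of the 11600 genes. In KO-labelled HDM skin 8 stood at 0, Smr3a and Pip among them. Sebocyte genes summed to 29379, 7784, 91981 and 75935 reads, adipocyte genes to 7259, 3302, 26060 and 7447, and fibroblast genes to 54012, 65510, 398992 and 181434. Skeletal muscle genes summed to 31454, 22370, 37138 and 22163 reads. Of 7 muscle genes, 0 were past 2-fold between genotypes in either treatment. Over the 11600 genes, 3.06% were higher and 4.66% lower under HDM, so 0 of 7 is near those shares. In naive skin the shares were 13.6% and 17.1%. Under HDM, 6 of 6 sebocyte, 7 of 12 hair and 3 of 6 adipocyte genes were higher in KO-labelled than in WT skin and 0 lower. Of the 10 salivary and lacrimal genes 1 was higher and 7 lower, and of the fibroblast and neutrophil genes 0 passed either way. The sebocyte sum is mostly Scd1, with 83901 reads in KO-labelled naive skin. By gene, 4 of the 6 sebocyte genes were higher and 2 lower with HDM in KO-labelled skin (median 1.48). In WT skin 0 were higher and 4 lower (median -1.35). Neutrophil genes summed to 321 and 326 reads in KO-labelled and WT HDM skin and to 4 and 62 in the naive libraries, with Elane and Mpo at 0 in both HDM libraries.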
